A study of Tribolium castaneum with 2 samples.

Results

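Divergent neighbours are adjacent genes on opposite strands that are read away from each other, so that their starts face each other across the stretch of DNA between them. Of 13350 adjacent pairs of reference genes with TC identifiers on ChLG2 to ChLG10 of the red flour beetle, *T*. *castaneum*, 1233 were divergent with 1 to 1000 bases between their coding regions. The left gene of such a pair lies on the minus strand and the right gene on the plus strand, and the distance is the first base of the right gene minus the last base of the left gene. These pairs held 2466 different genes of the 13663 TC genes on these chromosomes. The choice used positions and strands only and no measured value.

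In a divergent pair the short stretch between the genes holds the promoter region of both, and such a stretch can work as a bidirectional promoter. Close divergent neighbours are a known feature of compact genomes and of mammalian genomes, where many of them are housekeeping genes. Convergent neighbours are read towards each other and meet at their ends, and neighbours on the same strand are read one after the other. The comparisons asked whether divergent partners were more alike in their level, and in their difference between hypoxia and normoxia, than adjacent genes of the other orientations at the same distance.

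RNA was sequenced from wild-type last-instar larvae, 20 days from oviposition, after 12 h of hypoxia/hypercapnia (2% O2, 18% CO2 and 80% N2 supplied) or 12 h of normoxia, with 20 larvae kept together in a bottle. Samples of a treatment were pooled, as the methods describe. There was 1 library per condition, so no difference has a replicate check and none was tested. The effect of little oxygen cannot be told apart from that of much CO2, nor from larvae that stopped moving and feeding under the gas mixture. The sample labels do not say which library is which, and the assignment of TC1 to normoxia and TC2 to hypoxia comes from a figure legend of the study. Values are FPKM, fragment numbers divided by the length of the transcript and by the size of the library, summed per gene over the reference transcript and the assembled transcripts that share its exons.

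The files hold 17071 reference transcripts in each library beside assembled ones, of which there are 7674 under normoxia and 7423 under hypoxia. Read counts are not in the values used here, and the coverage per FPKM was 1.13 times as high in the hypoxia library, a measure of its relative depth. Among genes at 5 FPKM or more, the upper bound of the 95% interval lay above the FPKM by a median of 13.6% under normoxia and 12.8% under hypoxia. Counting error and the sharing out of fragments within 1 library set these intervals, which hold no differences between larvae. The lengths of 99.5% of the TC reference genes are multiples of 3, so the models hold coding sequence and the distances run between coding starts, not between transcription starts. The library kit does not mark the strand, so reads from overlapping ends of 2 neighbours cannot be told apart by strand. All differences between the orientations given here are descriptions without a test.

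Close divergent pairs were most frequent at intermediate distances. Of the 3477 adjacent divergent pairs, 35.5% were 1 to 1000 bases apart, against 30.8% of 6359 same-strand pairs and 44.5% of 3514 convergent pairs. The median distance of the 1233 divergent pairs was 439 bases, with quartiles of 292 and 636 bases. The band of 301 to 400 bases held 220 divergent pairs, the highest number of any band, while the band of 1 to 100 bases held 67. Same-strand pairs were spread more evenly, with a median of 413 bases and 134 pairs within 100 bases. Convergent pairs were most frequent at the shortest distances, with 358 pairs within 100 bases and a median of 275.5 bases. A further 211 divergent pairs overlapped or touched and were not included. The 9 chromosomes held between 52 and 194 close divergent pairs, and the share of TC genes in them ran from 14.7% on ChLG3 to 20.6% on ChLG7.

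**Figure D1:**
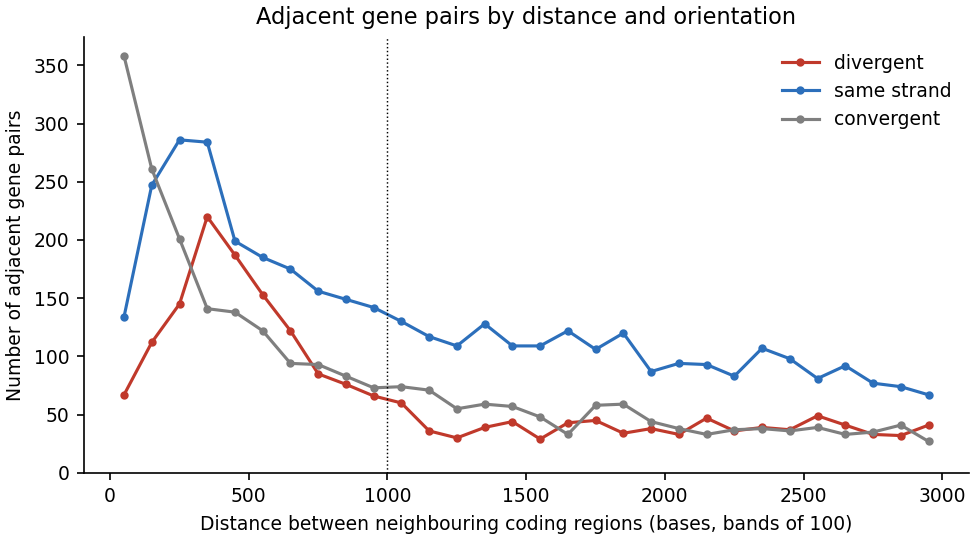
Number of adjacent gene pairs (vertical axis) in bands of 100 bases of distance between coding regions (horizontal axis, bases), for divergent, same-strand and convergent pairs on ChLG2 to ChLG10. Divergent pairs are most frequent at 301 to 400 bases (220 pairs), and convergent pairs within 100 bases (358 pairs).

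The pairs at the limits of the distance were mostly silent. The longest pair included, TC000696 and TC000866 at 996 bases, was listed at 0 FPKM for both genes in both libraries. The nearest pair left out, TC007341 and TC008161 at 1002 bases, had 0 FPKM for TC007341 in both libraries and 0.561 FPKM under normoxia and 0.506 FPKM under hypoxia for TC008161. At the short end, TC003935 of the 9-base pair TC002479 and TC003935 had 1.08 FPKM in each library and TC002479 was listed at 0. In the overlapping pair nearest to the limit, TC012097 and TC012384, TC012384 had 52.1 FPKM under normoxia and 52.7 FPKM under hypoxia beside a TC012097 listed at 0.

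Genes of close divergent pairs were expressed more often than other genes. A mean of at least 1 FPKM over both libraries was reached by 1900 of the 2466 genes (77.0%), against 57.6% of the other 11197 TC genes on these chromosomes, and the remaining 566 genes fell under this filter. Their median level was 11.2 FPKM under normoxia and 9.55 FPKM under hypoxia, against 2.63 and 2.06 FPKM for the other genes. Genes of close convergent pairs were close to them, with 75.9% past the filter and a median of 10.5 FPKM under normoxia, while genes of close same-strand pairs reached 68.1% and 6.39 FPKM. Close neighbours on opposite strands thus had higher median levels than those on the same strand. Members of divergent pairs had a median coding length of 1074 bases and a median of 4 exons, against 993 bases and 3 exons for the other genes, and 12.6% against 16.3% had a single exon.

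Both partners reached 1 FPKM in 783 of the 1233 divergent pairs, which is 63.5% (95% exact binomial interval 60.7 to 66.2%). The share was 52.2% (49.9 to 54.4%) among 1957 same-strand pairs and 61.2% (58.7 to 63.6%) among 1564 convergent pairs. These intervals treat pairs as independent, although a gene can be in a pair on either side. The product of the 2 partners' shares past the filter was 59.4% in divergent pairs, 44.9% in same-strand pairs and 57.6% in convergent pairs, and the observed share was above it in each orientation. In divergent pairs, 82.4% of the partners of an expressed gene were expressed, against 59.0% of the partners of a gene under the filter. In same-strand pairs these shares were 77.8% and 45.0%, and in convergent pairs 80.6% and 61.2%, near those of divergent pairs.

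The share of divergent pairs with both genes expressed varied with the distance. It was 45.3% (38.9 to 51.9%) of 236 pairs at 1 to 250 bases, 70.3% (66.1 to 74.3%) of 495 pairs at over 250 to 500 bases and 65.3% (61.0 to 69.5%) of 502 pairs at over 500 to 1000 bases. At 1001 to 2000 bases it was back at 47.5%. The share in same-strand pairs moved less, with 46.3%, 54.1%, 54.5% and 49.3% in the same 4 bands. The intervals of these 2 orientations were separate from over 250 to 1000 bases and overlapped at 1 to 250 bases. Convergent pairs had 59.2% at 1 to 250 bases, 65.8% (60.7 to 70.6%) at over 250 to 500 bases and 60.6% (56.0 to 65.1%) at over 500 to 1000 bases, and the latter 2 intervals overlapped those of divergent pairs. Divergent pairs at over 250 to 500 bases also had the fewest silent pairs. Neither gene reached 1 FPKM in 23 pairs (4.65%), against 46 pairs (19.5%) at 1 to 250 bases. The product of the 2 partners' shares past the filter was 68.6% in divergent pairs at over 250 to 500 bases, near the observed 70.3%. There it was 48.1% beside an observed 54.1% in same-strand pairs, and 62.7% beside 65.8% in convergent pairs. At 1 to 250 bases the divergent product was 39.6% beside 45.3%, and at over 500 to 1000 bases 60.8% beside 65.3%. The highest divergent share was thus the one nearest to that given by single genes.

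**Figure D2:**
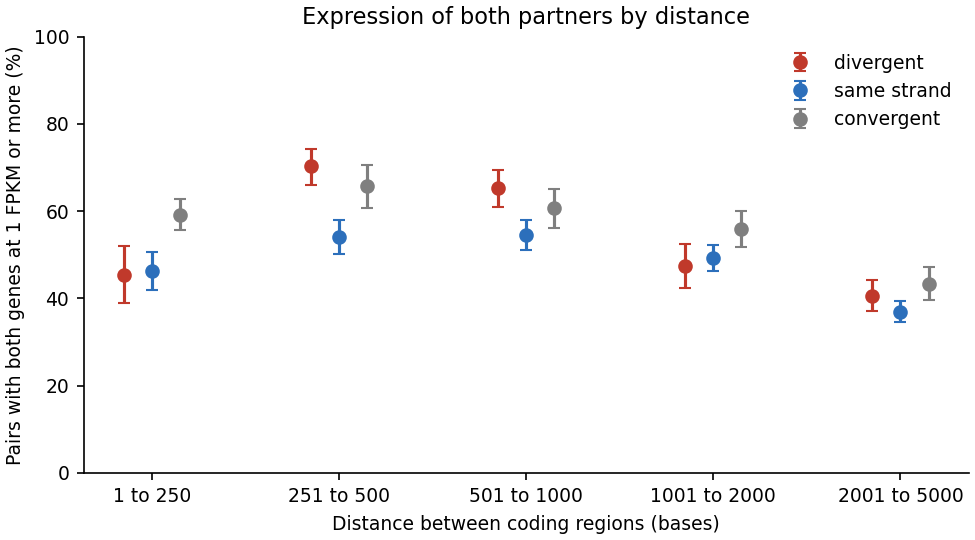
Share of adjacent pairs with both genes at a mean of 1 FPKM or more (vertical axis, percent) in 5 bands of distance between coding regions (horizontal axis, bases), by orientation. Points are shares and bars 95% exact binomial intervals, and the divergent share is 45.3% at 1 to 250 bases and 70.3% at over 250 to 500 bases.

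Partners of a divergent pair differed widely in level. Over the 783 pairs with both genes past the filter, the median absolute difference between partners was 1.85 on the log2 scale under normoxia (3.61-fold) and 1.91 under hypoxia (3.76-fold). Differences were taken on the log2(FPKM + 0.1) scale, which understates those of low genes. The partners were within 2-fold of each other in both libraries in 157 pairs (20.1%), and more than 16-fold apart in both in 102 pairs (13.03%). Pearson's r of the levels was 0.148 under normoxia and 0.065 under hypoxia, with Spearman's rho of 0.158 and 0.122, over 783 pairs. The points share 1 library each, and a correlation of this size is weak.

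Over all pairs up to 1000 bases apart, same-strand and convergent partners were further apart by their medians. The median absolute log2 difference was 2.04 under normoxia and 2.25 under hypoxia over 1021 same-strand pairs, and 2.10 and 2.30 over 957 convergent pairs. Pearson's r of same-strand pairs was 0.053 under normoxia and 0.051 under hypoxia, and that of convergent pairs was −0.061 and 0.028. The median difference of divergent partners was lower than that of same-strand partners in 18 of 19 ways of processing for normoxia and in all 19 for hypoxia. Same-strand pairs were within 2-fold in both libraries in 18.7% and more than 16-fold apart in both in 17.2%, and convergent pairs in 18.4% and 17.9%. By the level difference averaged over the libraries with its sign, 26.3% of divergent and 27.0% of same-strand pairs were within 2-fold. Leaving out the 112 pairs with a gene listed at 0 in either library raised r of the divergent pairs to 0.213 under normoxia and 0.222 under hypoxia, that of same-strand pairs to 0.106 and 0.116 and that of convergent pairs to 0.081 and 0.116. Without the filter, same-strand partners were the more alike by r, with 0.298 and 0.286 against 0.182 and 0.149 for the 1233 divergent pairs, and by rho, with 0.284 and 0.273 against 0.167 and 0.144.

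**Figure D3:**
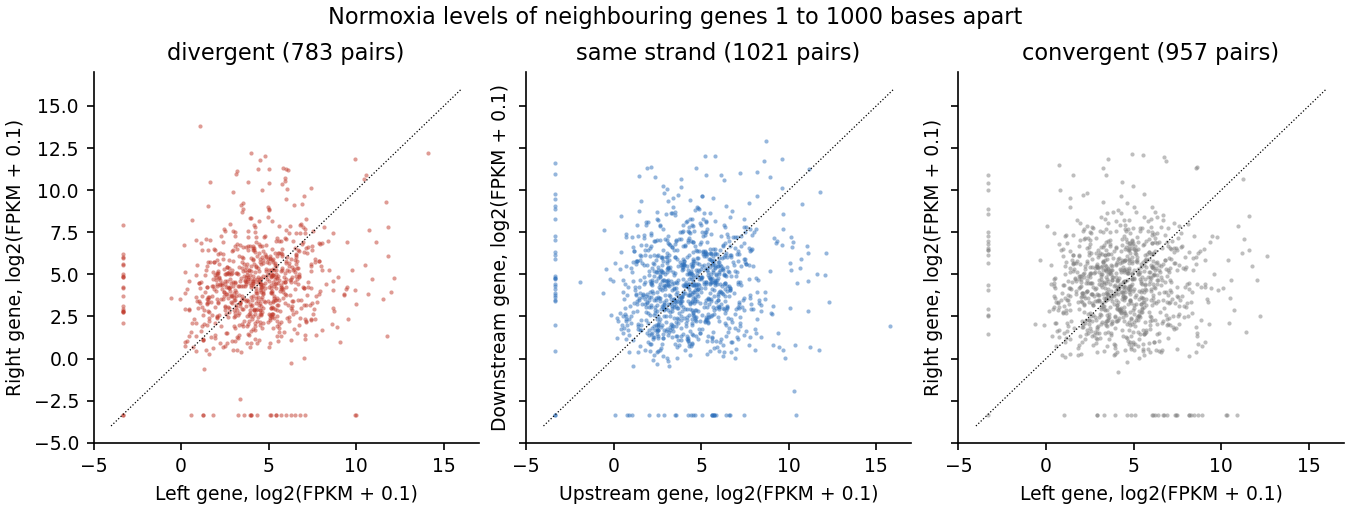
Level of one partner against the other under normoxia, both axes as log2(FPKM + 0.1), for 783 divergent, 1021 same-strand and 957 convergent pairs 1 to 1000 bases apart with both genes past the filter. Each point is a pair, the dotted line marks equal levels, the points along the lower and left edges are genes listed at 0 under normoxia, and Pearson's r is 0.148, 0.053 and −0.061.

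The pair with the highest level of its weaker partner was TC003041 and TC003386 on ChLG3, 402 bases apart (coding spans from 5353484 to 5353712 and from 5354114 to 5354354, positions as in the files). TC003041 had 17316 FPKM under normoxia (95% interval 16539 to 18093) and 10033 FPKM under hypoxia (9588 to 10479). TC003386 had 4661 FPKM under normoxia (4265 to 5056) and 6686 FPKM under hypoxia (6320 to 7052). The partners moved apart in sign, with a fall of TC003041 past the 1.5-fold threshold used below and a log2 ratio of TC003386 of 0.52, under it. With only the reference transcript counted, the log2 ratio of TC003041 was 0.99, in the opposite direction. Under normoxia the reference transcript of TC003041 had 5052 FPKM, and the rest came from an assembled transcript that shares exons with more than 1 reference gene. Both genes are short, with 171 coding bases each. The next 4 pairs by this rule held their summed levels within 1.5-fold in both partners. Among them TC009214 and TC009596 on ChLG7, 642 bases apart, were the most alike, with 1377 and 1607 FPKM under normoxia and 1339 and 1400 FPKM under hypoxia. The intervals of these 2 genes overlapped under hypoxia, while under normoxia TC009596 was the higher. TC009596 received no assembled transcript, and one of TC009214 reached across the gap into the coding span of TC009596.

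TC007011 and TC008513 on ChLG4, 592 bases apart, were also close under normoxia, with 1513 and 1889 FPKM, and had 1141 and 1973 FPKM under hypoxia. TC008513 received no assembled transcript, and one of TC007011 reached across the gap into the coding span of TC008513. In TC007699 and TC007795 on ChLG4 the right gene was several times higher, with 960 FPKM beside 3630 FPKM under normoxia and 676 FPKM beside 3675 FPKM under hypoxia. The reference transcript of TC007699 alone fell from 960 to 321 FPKM, and an assembled transcript under hypoxia only made up the rest of its value there. In TC000476 and TC001092 on ChLG2 the left gene was the higher one, with 3369 FPKM beside 635 FPKM under normoxia and 3003 FPKM beside 847 FPKM under hypoxia. An assembled transcript of TC001092 under hypoxia reached across the gap into the coding span of TC000476. High levels thus occurred on both sides of a short gap with and without similar values. Both partners were at 100 FPKM or more in 28 of the 783 pairs (3.58%), and in these the log2 ratios of hypoxia over normoxia had the same sign in 12 pairs.

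Some partners were far apart in level across a short gap. Among pairs with both genes at a mean of 5 FPKM or more and no gene listed at 0, the 3 that were furthest apart in the library where they were closer are named here, chosen after their values were seen. TC010413 on ChLG5 had 4047 FPKM under normoxia and 4678 FPKM under hypoxia, and TC010453, 542 bases away, had 15.4 and 14.3 FPKM. In TC007214 and TC008261 on ChLG4, 912 bases apart, the left gene had 9.08 and 7.96 FPKM and the right gene 2291 and 2263 FPKM. TC004462 on ChLG2 had 2932 and 3279 FPKM beside TC004928, 623 bases away, with 11.7 and 8.71 FPKM. The partners of these pairs were at least 248-fold apart in each library, and none of the 6 genes was called.

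The rule for pairs, which averages both libraries, ranked 3 other pairs first, and each rank was set by a gene listed at 0 under hypoxia. TC007928 on ChLG4 had 2361 FPKM under normoxia and 1917 FPKM under hypoxia, and its partner TC007575, 329 bases away, had 69.6 FPKM under normoxia and was listed at 0 under hypoxia. TC006036 on ChLG8 had 632 and 749 FPKM, and TC006114, 542 bases away, had 13.4 FPKM and 0. TC015083 on ChLG6 had 684 and 883 FPKM beside TC015621 with 17.6 FPKM under normoxia (interval 0 to 48.2) and 0 under hypoxia. The strongly expressed gene of each pair differed by less than 1.5-fold between the libraries, although with only its reference transcript counted TC007928 had a log2 ratio of 1.31. An FPKM of 0 can be a failed estimate, so no fold is given against it.

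At the other end, the pairs closest in the library where they were further apart, again chosen after their values were seen, were TC002647 and TC003798 on ChLG3, TC002918 and TC003529 on ChLG3, and TC013382 and TC014417 on ChLG5. TC002918 and TC003529, 352 bases apart, had 187 FPKM (166 to 208) and 188 FPKM (176 to 200) under normoxia and 166 and 158 FPKM under hypoxia, and neither gene received an assembled transcript. TC013382 and TC014417, 714 bases apart, had 22.8 and 21.6 FPKM under normoxia and 23.7 and 22.8 FPKM under hypoxia. These partners had nearly the same level in each library.

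TC002647 and TC003798, 747 bases apart, had 8.61 and 8.85 FPKM under normoxia and 4.59 and 4.43 FPKM under hypoxia. The log2 ratios were −0.89 (−1.48 to −0.31) and −0.98 (−2.01 to 0.05), of which only the first was called. With only the reference transcripts counted they were −0.37 and 0.31, so the partners then had opposite signs. After centring on the median or rescaling to an equal sum, TC002647 was no longer called.

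The rule for pairs ranked this pair behind TC013303 and TC014503 and behind TC013075 and TC014743, both on ChLG5, since gaps of opposite sign in the 2 libraries cancel in it. TC013303 and TC014503, 452 bases apart, had 30.4 and 32.3 FPKM under normoxia and 35.8 and 33.7 FPKM under hypoxia, with overlapping intervals in both. TC013075 and TC014743, 856 bases apart, had 17.3 and 24.3 FPKM under normoxia and 29.6 and 21.1 FPKM under hypoxia. The intervals of this pair overlapped under hypoxia, and with only its reference transcript counted TC013075 had a log2 ratio of −0.66.

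The order of the partners was mostly kept between the libraries. In 572 of the 783 divergent pairs (73.1%) the same partner was higher in both libraries with separate intervals, the left one in 280 pairs and the right one in 292. The order switched with separate intervals in 20 pairs (2.55%), of which 15 held a gene listed at 0, and in 191 pairs the intervals overlapped in one or both libraries. The same-strand pairs gave the same share of switches, with 26 of 1021 (2.55%). Of the 5 switched pairs without a listed 0, the 3 with the largest difference between partners in the library where it was smaller are named here, chosen after their values were seen. TC009599 on ChLG7 had 175 FPKM under normoxia (163.7 to 186) and 65.6 FPKM under hypoxia (62.0 to 69.3), while TC009208, 529 bases away, had 111 FPKM in both. The reference transcript of TC009599 was listed at 0 in both libraries, so its fall compares 2 assembled transcripts with 1. An assembled transcript of TC009599 also reached across the gap into the coding span of TC009208. In TC009117 and TC009712 on ChLG7, 867 bases apart, TC009712 had 48.4 FPKM under normoxia and 14.7 FPKM under hypoxia beside 23.4 and 23.0 FPKM for TC009117. In both pairs 1 partner fell past the other, which differed by less than 1.5-fold between the libraries. With only the reference transcript counted, the log2 ratio of TC009712 was 0.32 and that of TC009117 was 1.55. In the third, TC009263 and TC009540, both moved and are described below.

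A gene was called higher or lower under hypoxia where its FPKM differed by at least 1.5-fold with intervals that did not overlap. Over all 9731 genes past the filter 19.6% were called, 7.54% higher and 12.1% lower. Of the 1900 genes of divergent pairs past the filter, 110 were called higher (5.79%) and 221 lower (11.6%), together 17.4%. The share called was thus near the background and a little under it. The share called higher was 7.90% among genes of same-strand pairs and 6.91% among genes of convergent pairs. Of the calls in divergent pairs, 126 were on a listed 0. Among the other TC genes on these chromosomes, 528 were called higher and 809 lower, and 296 of these calls were on a listed 0. Calls in divergent pairs thus rested on a listed 0 more often than calls among the other genes. At 2-fold, 11.6% of the genes in pairs with both partners past the filter were called beside 11.9% of all genes, and by a log2 ratio beyond 2 combined standard errors 43.3% beside 44.4%. Fewer cells of a type and less RNA per cell cannot be told apart in whole larvae. The median log2 ratio of all genes past the filter was −0.10, and with the libraries centred on it 138 genes of divergent pairs were called higher and 185 lower. That of the genes of divergent pairs was −0.14.

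The differences between hypoxia and normoxia of the partners were at most weakly related, and to a similar extent in the other orientations. Pearson's r of the log2 ratios was 0.064 and Spearman's rho 0.022 over the 783 divergent pairs. The values were 0.059 and 0.041 for same-strand pairs and 0.079 and 0.015 for convergent pairs. The log2 ratios of divergent partners differed by a median of 0.49, against 0.51 in same-strand and 0.49 in convergent pairs. The signs were the same in 431 divergent pairs (55.0%), 56.2% of same-strand and 53.3% of convergent pairs. Centred on the median, where a common shift of all genes is taken out, the same sign was found in 50.7% of divergent pairs. The log2 ratios of the partners differed by more than 2 combined standard errors in 299 divergent pairs (38.2%).

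**Figure D4:**
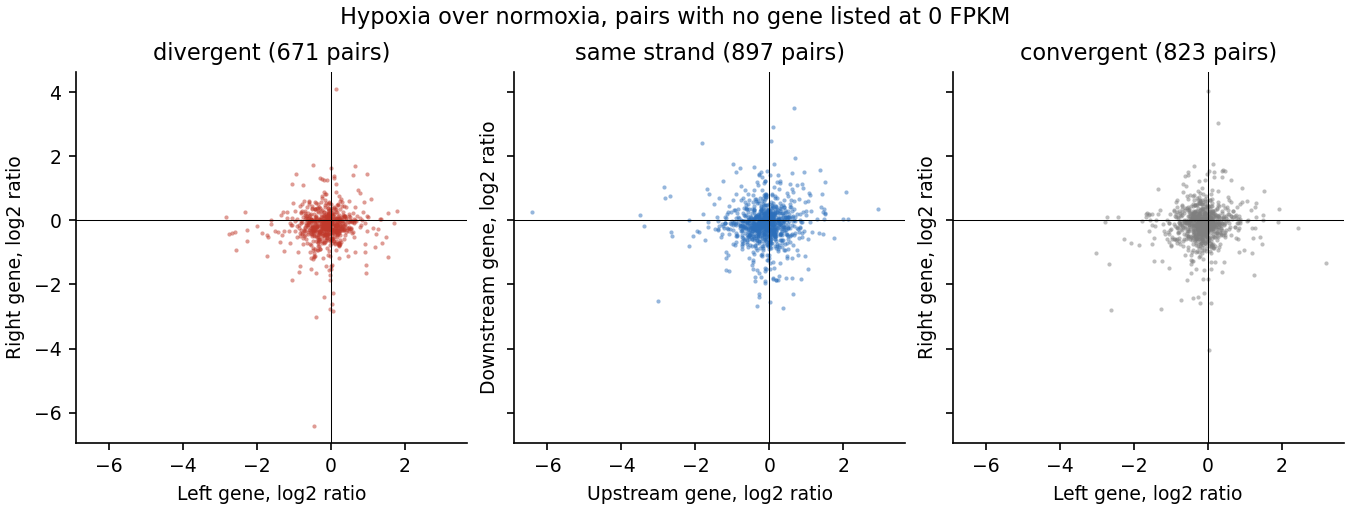
Log2 ratio of hypoxia over normoxia of one partner against the other, log2 of (FPKM + 0.1), by orientation. Shown are pairs 1 to 1000 bases apart with both genes past the filter and no gene listed at 0 (671 divergent, 897 same-strand and 823 convergent pairs). Each point is a pair, and the points do not follow the diagonal, with Pearson's r of 0.062 for divergent, 0.038 for same-strand and 0.103 for convergent pairs.

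Calls in both partners were rare. In 533 of the 783 divergent pairs (68.1%) neither partner was called, and in 226 pairs (28.9%) 1 partner was. Both were called in the same direction in 13 pairs (1.66%, interval 0.887 to 2.82%), 5 with both higher and 8 with both lower. They were called in opposite directions in 11 pairs (1.40%, 0.703 to 2.50%). Same-strand pairs had 37 pairs in the same direction (3.62%, 2.56 to 4.96%) and 24 in opposite directions (2.35%). Convergent pairs had 22 (2.30%) and 16 (1.67%). The share called in the same direction was not above that of same-strand pairs under any of the 20 ways of processing that gave it. A gene listed at 0 was part of 7 of the 13 and 7 of the 11 divergent pairs.

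Opposite calls did not follow the distance in one direction. Of 107 divergent pairs at 1 to 250 bases, 4 were called in opposite directions (3.74%) and 2 in the same direction (1.87%). Of 348 pairs at over 250 to 500 bases, 1 was called in opposite directions (0.287%) and 7 in the same direction (2.01%). Of 328 pairs at over 500 to 1000 bases, 6 were called in opposite directions (1.83%) and 4 in the same direction (1.22%). Opposite calls in same-strand pairs were 4.49%, 2.38% and 1.14% in these bands. The share of members called was 24.8% at 1 to 250 bases and 14.9% at over 250 to 500 bases, and in same-strand pairs it was 26.1% and 20.2%. The numbers of called pairs behind these shares are small.

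Without a gene listed at 0, both partners were higher in 2 pairs. TC004436 and TC004945 on ChLG2, 629 bases apart, rose from 35.3 to 74.6 FPKM and from 28.1 to 44.7 FPKM, with log2 ratios of 1.08 (0.68 to 1.48) and 0.67 (0.37 to 0.97). TC003169 and TC003291 on ChLG3, 203 bases apart, rose from 14.5 to 21.8 FPKM and from 38.9 to 104 FPKM. Each rise of the first pair compares different models, since the reference transcript of TC004436 was at 0 under hypoxia and that of TC004945 at 0 under normoxia. The rise of TC003291 came with an assembled transcript under hypoxia only, and with only its reference transcript counted the log2 ratio was −0.07.

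Both partners were lower in 4 pairs without a listed 0. TC008800 and TC010030 on ChLG7, 686 bases apart, fell from 27.1 to 12.6 FPKM and from 18.0 to 11.1 FPKM, with log2 ratios of −1.10 (−1.42 to −0.78) and −0.69 (−1.15 to −0.23). Neither gene received an assembled transcript in either library, so these values come from the same model in both. TC009035 and TC009803 on ChLG7, 376 bases apart, fell from 17.5 to 3.54 FPKM and from 7.28 to 4.66 FPKM. The left gene was the higher one under normoxia and the right gene was above it under hypoxia, with overlapping intervals there. The reference transcript of TC009803 was at 0 under hypoxia, and its value there came from an assembled transcript.

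The other 2 pairs also rest in part on assembled transcripts. TC005355 and TC006780 on ChLG8, 284 bases apart, fell from 8.32 to 4.50 FPKM and from 22.9 to 7.48 FPKM, and joining transcripts, which share exons with more than 1 reference gene, contributed to both values. TC000336 and TC001222 on ChLG2, 670 bases apart, fell from 2.43 to 0.325 FPKM and from 15.5 to 8.23 FPKM. TC001222 had 3 assembled transcripts under normoxia and 1 under hypoxia, and with only the reference transcript counted its log2 ratio was 2.26.

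The partners went in opposite directions in 4 pairs without a listed 0. TC000225 and TC001322 on ChLG2 are 86 bases apart (from 19121234 to 19122033 and from 19122119 to 19123049). TC000225 rose from 119 FPKM (108 to 130) to 225 FPKM (208 to 242), while TC001322 fell from 584 FPKM (538 to 631) to 297 FPKM (278 to 317). The log2 ratios were 0.92 (0.75 to 1.09) and −0.97 (−1.12 to −0.82). A joining transcript contributed to TC000225 under normoxia, and the reference transcript of TC001322 was listed at 0 under hypoxia, where its value came from an assembled transcript.

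TC009263 and TC009540 on ChLG7, 521 bases apart, exchanged their order, with TC009263 at 51.2 FPKM under normoxia and 97.4 FPKM under hypoxia and TC009540 at 76.9 and 45.7 FPKM. The hypoxia value of TC009263 came from an assembled transcript, and with only the reference transcript counted the log2 ratio of TC009540 was −0.19. In TC009164 and TC009646 on ChLG7, 387 bases apart, the left gene fell from 4.50 to 2.30 FPKM and the right gene rose from 21.6 to 59.3 FPKM. An assembled transcript of TC009646 reached across the gap into the coding span of TC009164. The reference transcript of TC009646 was listed at 0 in both libraries, so its rise compares 1 assembled transcript with 2. In TC005983 and TC006166 on ChLG8, 610 bases apart, the left gene rose from 4.95 to 9.57 FPKM and the right gene fell from 17.6 to 6.59 FPKM. The rise of TC005983 compares different models. Its reference transcript had 3.52 FPKM under normoxia and was listed at 0 under hypoxia, where 2 assembled transcripts gave its value. With only the reference transcript counted, TC006166 had a log2 ratio of 1.45, in the other direction.

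**Figure D5:**
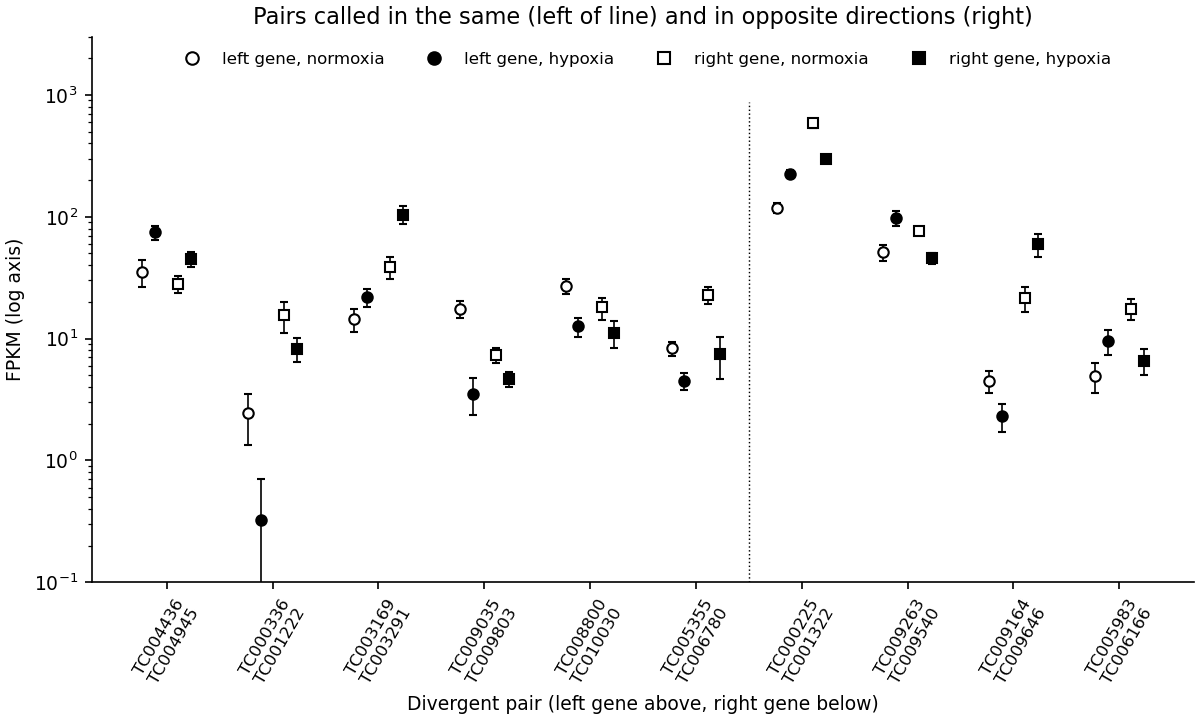
FPKM (log axis) under normoxia and hypoxia of both partners of the 10 divergent pairs with both genes called and no gene listed at 0, 6 in the same direction and 4 in opposite directions. Points are FPKM of 1 library and bars 95% intervals, a lower bound of 0 being cut at the axis, and TC001322 falls from 584 to 297 FPKM while TC000225 rises from 119 to 225 FPKM.

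The remaining calls in both partners turned on values listed at 0. TC010409 and TC010457 on ChLG5, 583 bases apart, were both listed at 0 under normoxia and had 10.6 and 179 FPKM under hypoxia. TC015302 and TC015425 on ChLG6, 319 bases apart, were listed at 0 under normoxia and had 21.3 and 6.48 FPKM under hypoxia. TC005722 and TC006411 on ChLG8, 382 bases apart, had 89.9 and 35.4 FPKM under normoxia and were listed at 0 under hypoxia. These were the 3 of the 112 pairs with a listed 0 in which both partners were at 0 in the same library.

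The zeros of TC005722 and TC006411 were not particular to the pair. The neighbouring genes TC006409, TC006410, TC006412 and TC005720, on either strand, had 50.7, 37.7, 47.4 and 66.0 FPKM under normoxia and were also listed at 0 under hypoxia. In TC012047 and TC012420 on ChLG9, 100 bases apart, the values were 8.30 and 3.49 FPKM under normoxia and 0.503 FPKM and 0 under hypoxia. TC007660 on ChLG4 was at 0 under normoxia and at 7.71 FPKM under hypoxia beside TC007847, which rose from 32.2 to 48.8 FPKM. TC015172 on ChLG6 was at 25.1 FPKM under normoxia and at 0 under hypoxia beside TC015538, which fell from 51.8 to 27.9 FPKM. Opposite calls with a listed 0 included TC002763 and TC003671 on ChLG3, with 19.7 and 8.13 FPKM for TC002763 and 0 and 5.58 FPKM for TC003671 under normoxia and hypoxia. They also included TC014519 and TC013293 on ChLG7, with 0 and 2.55 FPKM for TC014519 and 7.09 and 3.005 FPKM for TC013293.

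With all genes listed at 0 left out, 6 of 671 divergent pairs were called in the same direction and 4 in opposite directions. Here 11.5% of the members were called, against 15.7% of all genes above 0 in both libraries (6.02% higher and 9.69% lower). This background does not require a close neighbour past the filter. In pairs chosen the same way, 15.4% of same-strand and 12.5% of convergent members were called, so convergent pairs were near divergent ones. The log2 ratios of divergent partners then had a Pearson's r of 0.062 and a median difference of 0.39.

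Of the 65 genes with a name in the tables read, 1 was a member, and its partner was not called. Over all 17070 reference genes, 2466 were members. The study's tables list genes that it found to differ between these 2 libraries, so a difference of the named gene follows from that choice. TC000403, named as a branched-chain-amino-acid aminotransferase, an enzyme that moves the amino group between leucine, isoleucine or valine and their keto acids, lies on ChLG2 from 14509395 to 14511919. It rose from 398 FPKM (378 to 418) to 770 FPKM (739 to 801), a log2 ratio of 0.95 (0.86 to 1.04). Its partner TC001151, 898 bases away, had 4.01 FPKM under normoxia (0.315 to 7.70) and 1.21 FPKM under hypoxia (0 to 2.92). The partners thus differed 239-fold in level as the mean of both libraries, and the interval of the log2 ratio of TC001151, from −3.94 to 0.64, was too wide for a direction.

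Among the 783 pairs with both genes past the filter, the 3 with the shortest distances showed no common behaviour. TC010582 and TC010597 on ChLG7 are 9 bases apart, and TC010582 had 5.66 FPKM under normoxia and was listed at 0 under hypoxia while TC010597 had 7.19 and 4.17 FPKM. TC012129 and TC012340 on ChLG9 are 20 bases apart, and TC012340 fell from 80.9 to 37.5 FPKM while TC012129 had 18.7 and 18.2 FPKM. The fall of TC012340 was not seen in its reference transcript, which had a log2 ratio of 0.17. The values of TC012129 came from assembled transcripts, with a joining one among them. Its reference transcript was listed at 0 in both libraries, as was that of TC010582. TC015309 and TC015421 on ChLG6 are 36 bases apart and were alike in both libraries, with 16.9 and 22.4 FPKM under normoxia and 15.4 and 16.7 FPKM under hypoxia. Once assembled transcripts were added, the pairs at 9 and at 36 bases overlapped, so reads there cannot be told apart by strand.

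Assembled transcripts reached into the gap between the coding starts of most pairs. They shortened the distance in 518 of the 783 divergent pairs (66.2%), against 52.6% of same-strand and 54.6% of convergent pairs, and the median distance of these 518 pairs went from 481 to 250 bases. Over the transcripts of both libraries 98 divergent pairs (12.5%) then overlapped, and singly 61 in the normoxia assembly, 68 in the hypoxia assembly and 33 in both. Convergent pairs overlapped more often, in 19.6%, and same-strand pairs in 1.76%. The median shortening of a divergent gap was 212 bases. In 152 pairs neither gene received an assembled transcript in either library, and in these Pearson's r of the log2 ratios was 0.190, against −0.150 in 215 same-strand and 0.174 in 173 convergent pairs chosen the same way. Spearman's rho showed no such contrast, with 0.087, 0.063 and 0.078, and the signs were the same in 58.6%, 62.3% and 57.2% of these pairs.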

How the data were processed

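Poly(A) RNA of *T*. *castaneum* larvae was sequenced in 1 normoxia and 1 hypoxia library. The authors removed adapters and low-quality bases. The deposited file of a library is a Cufflinks assembly built around the reference transcripts, and it gives every transcript an FPKM, its 95% interval and a coverage among other attributes. The values listed as other are these FPKM, which were deposited inside a text field. The reads were compared with a BeetleBase genome, and its build, the annotation release, the aligner and all versions were not given in the sources used here. Coordinates follow the deposited files. Each library was assembled on its own, so a gene can have different models in the 2 libraries. No columns of the authors' own comparisons were used.

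Each assembled transcript went to the gene whose exons it shared most bases with on its strand, and one without a strand to a gene on either strand. Transcript FPKM were summed per gene. Interval widths, as upper bound minus FPKM, were combined as the root of summed squares and taken as 2 standard errors. Log2 ratios used a pseudocount of 0.1 FPKM. Pairs entered the comparisons of level and difference where both genes had a mean of at least 1 FPKM. A call needed 1.5-fold and separate intervals. Adjacent means next to each other among all reference genes by start, and same-strand pairs were oriented with the upstream gene first.

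Pairs were named by rule: with a partner named in the study's tables, the 5 with both higher, the 5 with both lower and the 5 in opposite directions with the largest smaller change, the 5 with the highest weaker partner, the 3 most and the 3 least different in signed level difference averaged over the libraries at 5 FPKM or more, and the 3 closest. Called pairs without a listed 0, switched pairs and pairs closest or furthest in each library were added after their values were seen. The members and lists were chosen with earlier results of these data known. Scripts were tested on a made-up annotation and on simulated data. Python 3.11.15, numpy 2.4.6, pandas 2.3.3 and scipy 1.17.1 were used.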

Additional observations from a re-analysis of the deposited data

How the results depend on the processing

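There was 1 library per condition, so none was left out. No paired analysis was possible because each condition has 1 library and the labels carry no replicate number. What moved is given here as the value for divergent pairs, a value having moved where it left the 95% interval of the value reported above, and the causes were not tested except where fewer genes or pairs entered. Of 245 values for the comparisons, 188 stayed inside that interval and 57 left it.

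With the reference transcript alone, r of the levels under normoxia was 0.073, rho was 0.080 under normoxia and 0.028 under hypoxia, the median level difference was 2.08 under normoxia and 2.34 under hypoxia on the log2 scale, r of the log2 ratios was −0.057, their median difference was 0.76, 4.49% of pairs were called in the same direction, 4.98% in opposite directions and 29.7% of members were called. The log2 ratio then reversed for TC001222 (2.26), TC003041 (0.99), TC003291 (−0.074), TC006166 (1.45), TC007928 (1.31), TC009117 (1.55), TC009712 (0.32), TC012340 (0.17) and TC013075 (−0.66). Without a filter, r of the levels under hypoxia was 0.149 (0.286 in same-strand pairs), the level differences were 2.48 and 2.57, the same sign was found in 43.1% and 14.4% of members were called. At a mean of 5 FPKM or more the level differences were 1.45 and 1.55 and that of the log2 ratios 0.39.

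At 1 to 250 bases, rho of the log2 ratios was −0.089, their median difference 0.67, the same sign was found in 61.7%, opposite calls in 3.74% and called members in 24.8%. At over 250 to 500 bases, opposite calls were 0.287% and called members 14.9%, and at over 500 to 1000 bases the level difference under hypoxia was 2.11. Without genes listed at 0, the values under hypoxia were 0.222 for r, 0.222 for rho and 1.75 for the level difference, with 0.39 for the difference of log2 ratios, 0.596% opposite calls and 11.5% called members. Without pairs whose gene is also in a close pair of any orientation on its other side (122 left), r and rho under hypoxia were 0.188 and 0.245, same-direction calls 0.820% and opposite calls 0. A pseudocount of 1 FPKM gave 1.74 for the level difference under hypoxia and 0.44 for that of the log2 ratios. The same sign was found in 50.7% after centring on the median and in 51.5% after both libraries were scaled to an equal sum of FPKM. With a 2-fold threshold, calls were 0.511% in the same direction, 0.255% opposite and 11.6% of members, beside 11.9% of all genes. With a log2 ratio beyond 2 combined standard errors they were 11.5%, 8.05% and 43.3%, beside 44.4% of all genes.

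Of the alternatives chosen after seeing the data, 5 FPKM or more without genes listed at 0 gave an r of 0.217 and a rho of 0.203 under hypoxia, level differences of 1.41 and 1.49 and a difference of log2 ratios of 0.33. Pairs without assembled transcripts gave an r of the levels of 0.074 under normoxia and 0.168 under hypoxia, a rho of 0.191 under hypoxia, an r of the log2 ratios of 0.190, a median difference of 0.44 and 14.5% called members. The other settings, among them leaving out joining transcripts, pairs overlapping after assembly or pairs with another gene over the gap, and adding ChLGX, moved none of the values for the comparisons. Depth limits the low genes, whose intervals are wide.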
